A study of Mus musculus with 2 samples.

Results

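The mouse autosomes hold long stretches in which no KDM2A peak was found, and these stretches are described here as windows of 500 kb. KDM2A is a histone H3 lysine 36 demethylase whose ZF-CxxC domain binds CpG dinucleotides that carry no DNA methylation. CpG islands, the CpG-rich and mostly nonmethylated stretches that lie at many promoters, are its known binding sites, whereas most other CpGs of the mammalian genome are methylated. A library made with a KDM2A-specific antibody holds tags from bound sites together with background tags from the rest of the genome, and the windows without a peak are described for that background and for what lies just under the limit for a peak.

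Windows were laid from position 1 of chromosomes 1 to 19. Each position and strand with a tag was counted once, tags were moved by 50 bp toward the 3' side, and tags were summed in bins of 250 bp. A peak bin held at least 15 KDM2A tags, at least 3 times the scaled input and under 8 input tags, where input was multiplied by 1.24, the ratio of the tags of both libraries on these chromosomes. Of 4955 windows, 4726 held at least 500 input tags, and 1717 of these had no peak bin and are the windows described. They make up 36.3% of the windows that could qualify and cover 858.5 Mb of 2363 Mb. Of the 229 windows left out, 138 held no input tag and 91 held fewer than 500.

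The data are 1 KDM2A ChIP library and 1 input library, the latter made without antibody, both from V6.5 mouse embryonic stem cells (ESCs). V6.5 cells stem from a cross of C57BL/6 and 129/sv, although the strain label names C57BL/6 alone. They were grown with leukemia-inhibiting factor and 15% serum on inactivated fibroblasts, and were then taken through 2 passages on 0.2% gelatin without feeder cells before fixation. Neither library carries a treatment, and no expression was measured in them with which the labelled cell type could be checked. The total was 10042076 tags for KDM2A, on 9564671 distinct positions when strands are counted apart. For input it was 9760426 tags on 7764852 such positions. With 1 library of each kind there is no replicate check, and the windows were chosen by their own KDM2A and input tags, so that all their values are given as a description without a test. Intervals are 95% Wilson intervals and cover counting error only. They do not cover differences between libraries or the spread between windows.

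Peak bins were rare in the genome as a whole. They made up 0.342% of the 9452000 bins in windows of at least 500 input tags, that is 32324 bins. With KDM2A and input exchanged, the same limits gave 14 bins (0.000148%), which lay in 9 windows. Thus 99.8% of windows had no bin that passed the exchanged limits. The windows without KDM2A peaks held 1554208 KDM2A tags and 1946312 input tags. This was 16.6% of the KDM2A tags and 25.7% of the input tags in the 4726 windows.

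Windows without peaks occurred on every autosome, and their share of the windows differed between chromosomes. It was highest on chromosome 16, with 88 of 190 windows (46.3%), followed by chromosome 6 with 132 of 290 (45.5%). It was lowest on chromosome 11, with 59 of 238 (24.8%), and next on chromosome 19 with 34 of 117 (29.1%). The chromosomes with few such windows were not always those with many peak bins per window. Chromosome 11 had on average 14.5 peak bins per window, the highest value of all autosomes, and chromosome 8 had 13.5. On chromosome 8, however, 85 of 251 windows (33.9%) were without a peak, a share above those of chromosomes 2, 5, 7, 9, 11, 18 and 19. Chromosome 6 had the fewest peak bins per window, at 3.34.

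**Figure D1:**
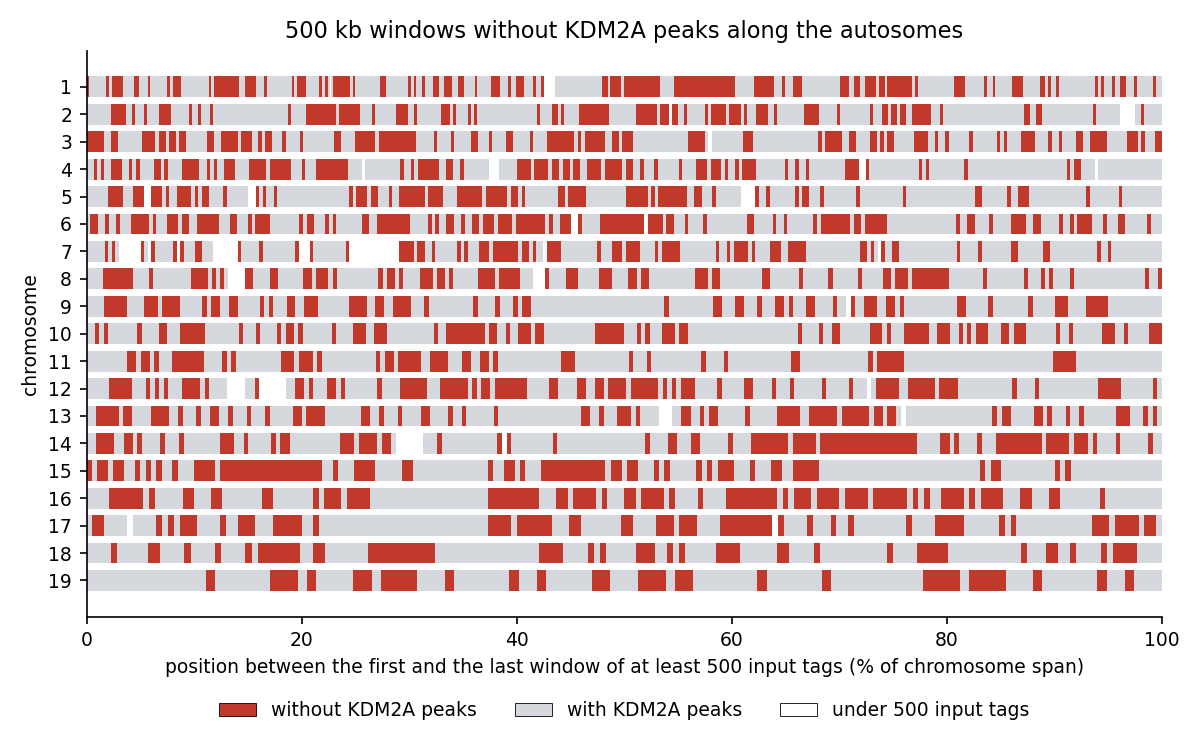
Each row is a chromosome and each block a 500 kb window, drawn by its position between the first and the last window of at least 500 input tags (horizontal axis, % of that span). Windows without KDM2A peaks are red, windows with peaks grey, and windows under 500 input tags white. Red blocks stand on all 19 chromosomes and join into long runs on chromosomes 1, 14 and 15.

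Along the chromosomes, windows without peaks were less frequent toward the distal end. When the span between the first and the last qualifying window of each chromosome was cut into 10 equal parts, they made up between 35.0% and 42.8% of the windows in each of the first 8 parts. In the ninth part they were 24.6% (119 of 484 windows), and in the last part 23.2% (108 of 466). Mouse autosomes have their centromere at the end where numbering starts. The first 5 Mb from the first qualifying window at that end included 74 windows without peaks among 188 (39.4%), and the last 5 Mb included 39 among 189 (20.6%).

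Most of the windows lay next to one another. They formed 706 runs, of which 340 were a single window and 366 held 2 windows or more. Of the 1717 windows, 1377 adjoined another one (80.2%, interval 78.2% to 82.0%, which treats windows as independent although neighbours are not). After a window without a peak, the next qualifying window was also without one in 59.4% of cases, compared with 23.0% after a window with a peak. Runs of at least 5 windows numbered 89, were found on 18 of the 19 chromosomes, and held 636 windows (37.0%). The 11 runs of at least 10 windows held 151 windows (8.79%) and covered 75.5 Mb.

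The longest run lay on chromosome 1 from 109000001 to 120000000 in mm9, 22 windows or 11 Mb. It held 16241 KDM2A tags and 22323 input tags. Its windows held between 602 and 929 KDM2A tags, with a median of 722.5, and between 722 and 1257 input tags, with a median of 1003. The median over all 1717 windows without peaks was 781 KDM2A tags. In windows with peaks it was 2260, which includes the tags of their peak bins. KDM2A tags were 42.1% of its tags (41.6% to 42.6%). Bounded by the nearest peak bins, the stretch without a peak ran from 108693001 to 120207500, over 11.5 Mb. The peak bin before it held 15 KDM2A tags and 1 input tag, at the limit itself, and the one after it held 26 KDM2A tags and 0 input tags.

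The second run, on chromosome 14 from 88000001 to 98500000, had 21 windows with 607 to 816 KDM2A tags each and a median of 659. Its input tags per window ranged from 860 to 1091, with a median of 982. The third, on chromosome 15 from 15500001 to 25000000, had 19 windows with 470 to 659 KDM2A tags and a median of 548. Its input was lower as well, at 597 to 921 tags and a median of 802. KDM2A tags were 41.0% (40.5% to 41.6%) of the tags in the second run and 41.4% (40.8% to 42.0%) in the third. These shares lie within a single percentage point of each other, although the third run held fewer tags per window in both libraries.

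**Figure D2:**
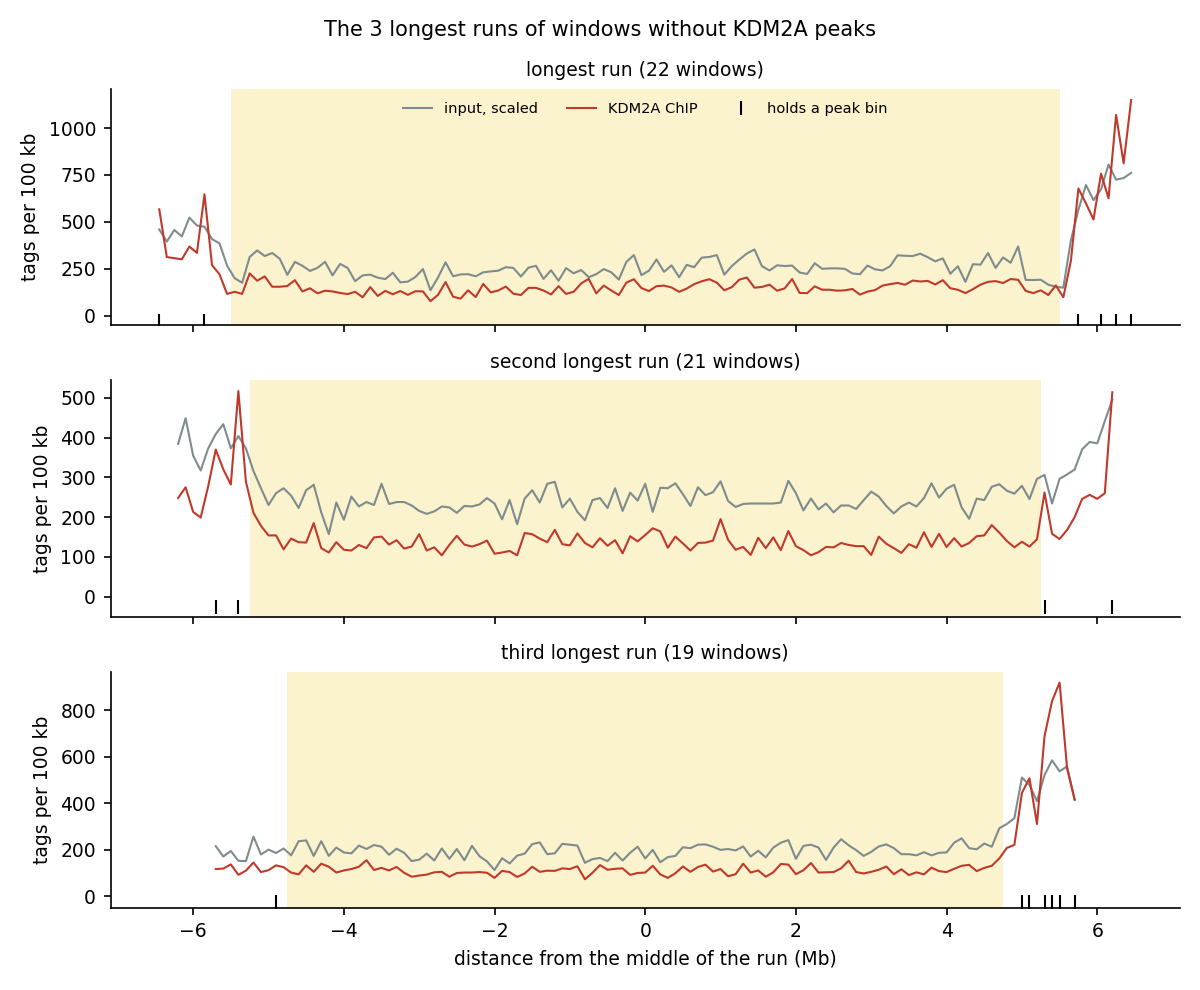
The 3 longest runs of windows without KDM2A peaks, each shaded, with 1 Mb on both sides. The horizontal axis is the distance from the middle of the run (Mb) and the vertical axis is tags per 100 kb, with input multiplied by 1.24; ticks mark 100 kb steps that hold a peak bin. Within the shaded parts KDM2A stays under scaled input along nearly the whole length. Both rise near the edges, apart from the left side of the third run. The factor of 1.24 was computed with tags in peaks included. Outside peak bins and 5 kb on each side, KDM2A was also under scaled input in windows with peaks, at 0.926 times, against 0.644 in windows without.

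The next run was again on chromosome 1, from 100000001 to 106500000, with 13 windows of 617 to 846 KDM2A tags and 817 to 1264 input tags. Runs of 12 windows lay on chromosome 15 from 45500001 to 51500000 and on chromosome 6 from 73000001 to 79000000. On chromosome 15 the windows held 482 to 1020 KDM2A tags and 739 to 1303 input tags. On chromosome 6 they held 322 to 1116 KDM2A tags and 506 to 1063 input tags, which includes the lowest counts of both libraries among all 1717 windows. In that run 61.5% of the bins held no tag of either library, against 49.6% in the longest run.

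The length of the runs depended on the limit of 15 tags. In the longest run 11 bins held 10 to 14 KDM2A tags and passed both input conditions, and these lay in 6 of its 22 windows. The second run had 5 such bins in 5 windows, and the third had 1. The run on chromosome 6 had none, so that its highest bin held 9 KDM2A tags. No bin of these 6 runs held 10 or more input tags. With a limit of 10 KDM2A tags the longest run of the genome was 12 windows. With a limit set in proportion to the input of each window, an alternative chosen after the data were seen, it was 9 windows.

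Measured without the grid of windows, 1028 stretches between neighbouring peak bins were at least 500 kb long and 501 were at least 1 Mb long. The median over all 16779 stretches was 29.8 kb. Those of at least 1 Mb added up to 1046 Mb, and 18 exceeded 5 Mb. The third longest, on chromosome 7 from 38969001 to 48995250, spanned 10.0 Mb but held only 6730 KDM2A and 7504 input tags. There 82.6% of bins were empty in both libraries, against 49.3% in the longest stretch. It appears among no runs of windows above, since part of it fell under the minimum of 500 input tags.

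How far the windows were from having a peak was read from their highest bin. In 875 windows (51.0%) the highest KDM2A bin held 3 to 7 tags, in 510 (29.7%) it held 8 to 11, and in 317 (18.5%) it held 12 to 14. The most frequent value was 5 tags, in 318 windows. Bins of 10 to 14 KDM2A tags that passed both input conditions numbered 1028 and lay in 531 windows (30.9%). With KDM2A and input exchanged, 2 such bins were found in the same 1717 windows. Over all 4726 windows, only 1186 (25.1%) had no bin of at least 10 KDM2A tags that passed these conditions. All of these 1186 are windows without peaks, since a window with a peak holds such a bin by the rule. Bins of 10 to 14 tags were thus present in part of the windows without peaks and were nearly always on the side of KDM2A.

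The windows just inside the limit were the 120 whose highest bin held 14 KDM2A tags. The input conditions were not applied to that bin, which held up to 20 input tags, against at most 4 in the windows just outside. They held a median of 1035 KDM2A tags (537 to 2347) and 1227 input tags (718 to 2191). Just outside it were 88 windows with 1 peak bin and a highest bin of 15 KDM2A tags, with a median of 1233.5 KDM2A tags (463 to 3406) and 1427.5 input tags (566 to 2725). The KDM2A share was 46.9% inside and 48.2% outside. Windows were frequent on both sides of the limit, with somewhat lower numbers just outside it. A highest bin of 13 tags was found in 100 windows without peaks, and 1 of 14 tags in 120. Among windows with peaks, 96 had a highest bin of 15 tags and 81 had 1 of 16 tags.

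**Figure D3:**
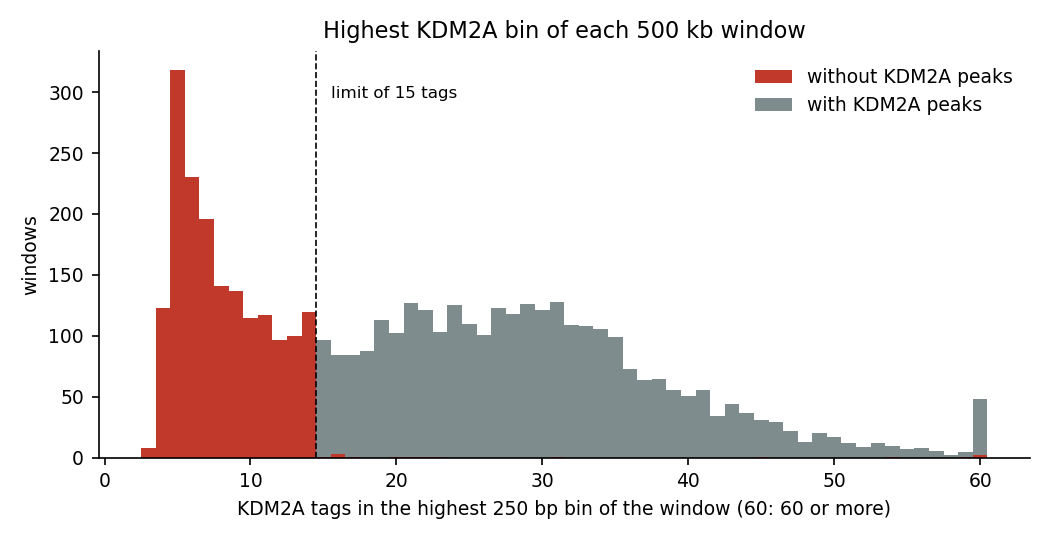
Number of 500 kb windows (vertical axis) by the KDM2A tags of their highest 250 bp bin (horizontal axis, values over 60 set to 60), stacked for windows without peaks (red) and with peaks (grey). The dashed line is the limit of 15 tags, which cuts through a continuous distribution; red blocks to its right are windows kept by the input conditions.

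In 15 windows (0.874%) a bin reached 15 KDM2A tags and was kept from being a peak bin by its input tags. They held 31 such bins. The highest was on chromosome 2, in the window from 98500001 to 99000000, with 222 KDM2A tags and 240 input tags in the same bin and 13 bins of at least 15 tags. The next was on chromosome 12, in the window from 98000001 to 98500000, where the bin held 128 KDM2A tags and 93 input tags. These windows held 1740 and 794 KDM2A tags in all and 1913 and 1013 input tags. Without the conditions on input, 1702 windows remained.

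Both libraries were thinner in the windows without peaks. The median window held 781 KDM2A tags, with quartiles of 629 and 1051, against a median of 2260 in windows with peaks, with quartiles of 1531 and 3257. Input counts were 1054 (887 and 1309) against 1891 (1499 and 2212). For a comparison outside peaks, peak bins and 5 kb on each side of them were left out everywhere. What remained is called background. The windows without peaks then held 0.453 KDM2A tags and 0.567 input tags per bin, and the windows with peaks 1.05 and 0.912. KDM2A background was thus 0.432 times and input 0.621 times that of the other windows. This background was not free of high KDM2A bins. In windows with peaks, 14353 of its bins held 10 or more KDM2A tags and 512 held 10 or more input tags. In windows without peaks these numbers were 1154 and 60. The part of such bins in the ratio of 0.432 and in the shares given below was not tested. Input entered the rule only through the minimum of 500 tags per window and the limits at a peak bin, so that its lower level over whole windows was not fixed by the rule, and its part in the absence of peaks was not tested.

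KDM2A tags made up 44.4% of the tags in windows without peaks (44.3% to 44.5%) and 53.4% in windows with peaks, with peaks and their surroundings left out of both (53.4% to 53.5%). Over all tags of the 19 chromosomes the share was 55.3%. The difference of 9.04 percentage points was present in the same direction on all 19 chromosomes. The windows were chosen for having no high KDM2A bin, so a lower share follows in part from the choice, also within each chromosome. Pooled by chromosome, the share lay between 43.1% and 45.8% in windows without peaks and between 50.7% and 56.5% in the others. These ranges of pooled values did not overlap. The shares of single windows did, from 35.7% to 63.4% without peaks and from 35.9% to 72.1% with peaks. Input per bin, again pooled by chromosome, lay between 0.484 and 0.741 in windows without peaks and between 0.794 and 1.20 in the others. Chromosome 8 had the highest input in both kinds of windows, and its KDM2A share in windows without peaks, 44.2%, was close to that of all such windows.

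**Figure D4:**
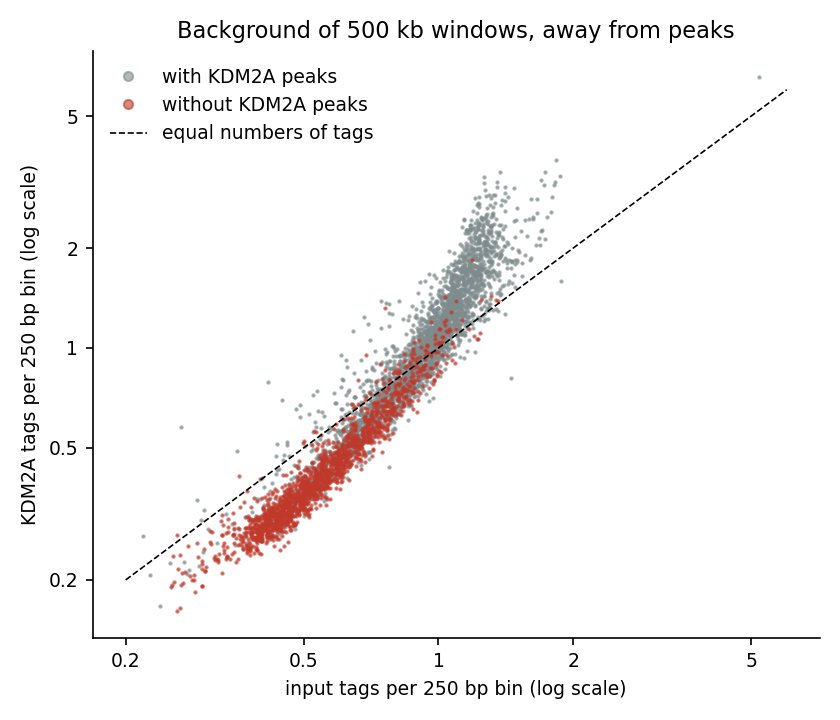
KDM2A tags (vertical axis) against input tags (horizontal axis) per 250 bp bin, both on log scales, for each 500 kb window with peak bins and 5 kb around them left out. Windows without peaks (red) lie at the lower left, mostly under the dashed line of equal tags, and windows with peaks (grey) rise above it where input exceeds about 1 tag per bin.

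The KDM2A share was also described within classes of input, in which a lower share without peaks follows in part from the choice of windows without a high KDM2A bin. Input was close but not equal within a class, for example 0.472 tags per bin without peaks and 0.489 with peaks at 800 to 1099 tags per window, and 1.10 and 1.16 at 2000 or more. Of the 937 windows with 800 to 1099 input tags, 759 (81.0%) were without peaks. Among these the KDM2A share was 42.1% (42.0% to 42.2%), and among the 178 with peaks it was 44.2% (44.1% to 44.4%). At 1400 to 1699 input tags, 212 of 721 windows (29.4%) were without peaks, with shares of 46.4% (46.2% to 46.5%) and 48.6% (48.5% to 48.7%). At 2000 input tags or more only 39 of 1258 windows (3.10%) were without peaks, with shares of 51.0% (50.7% to 51.2%) and 57.2% (57.2% to 57.3%). The share was lower without peaks in all 6 classes of input that were compared. It also increased with input among the windows without peaks themselves, apart from the class of 500 to 799 tags, where it was 42.6%.

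The same order was seen when windows with peaks were divided by the number of their peak bins. Peak bins are themselves defined by KDM2A tags, so this order follows in part from the rule. The KDM2A share of the background was 47.7% in 366 windows with 1 peak bin, 50.3% in those with 3 to 5, 55.8% in those with 11 to 20, and 63.7% in the 63 windows with 51 or more. Input per bin was 0.710, 0.840, 1.06 and 1.31 in these classes. Windows without peaks, at 44.4% and 0.567 input tags per bin, thus stood at the low end of a graded series in both measures.

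Within the windows without peaks, those in long runs had the lowest background. Runs are themselves defined by KDM2A tags, so this order follows in part from the rule. Windows that stood alone held 0.617 KDM2A and 0.698 input tags per bin, and KDM2A was 46.9% of their tags (46.8% to 47.0%). In runs of 2 to 4 windows the share was 44.3% (44.2% to 44.3%), in runs of 5 to 9 it was 42.7% (42.6% to 42.8%), and in runs of 10 or more 41.8% (41.6% to 42.0%), with 0.332 KDM2A and 0.463 input tags per bin. The windows with peaks that bordered runs of any length, single windows included, had a median of 4 peak bins at 1374 sides, compared with 6 in all windows with peaks, and 22.4% of the bordering sides had a single peak bin, against 12.2% of all windows with peaks. A window can border runs on both sides and is then counted for each.

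The decline continued with distance from the nearest peak bin. In the windows without peaks, KDM2A was 49.2% of the tags at 5 to 20 kb from a peak bin (47.9% to 50.5%), a distance at which only 0.871 Mb of these windows lay. The share was 47.1% at 100 to 250 kb (47.0% to 47.2%), 43.5% at 500 to 1000 kb (43.4% to 43.6%) and 42.1% at 1 to 2 Mb (42.0% to 42.2%). Beyond 2 Mb, in 51.8 Mb of sequence, it was 41.5% (41.3% to 41.8%). Over the same range KDM2A tags per bin fell from 0.785 to 0.310 and input tags per bin from 0.809 to 0.437. In the same class of distance the windows with peaks had higher shares, for example 49.5% (49.4% to 49.5%) at 100 to 250 kb. At 250 to 500 kb they had 46.6% (46.5% to 46.7%), and the windows without peaks 45.3% (45.2% to 45.4%). Input per bin was also higher in windows with peaks, at 0.795 against 0.700 and 0.679 against 0.633 in these 2 classes. Peak bins and both kinds of windows are defined by KDM2A tags, so these orders follow in part from the rule.

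**Figure D5:**
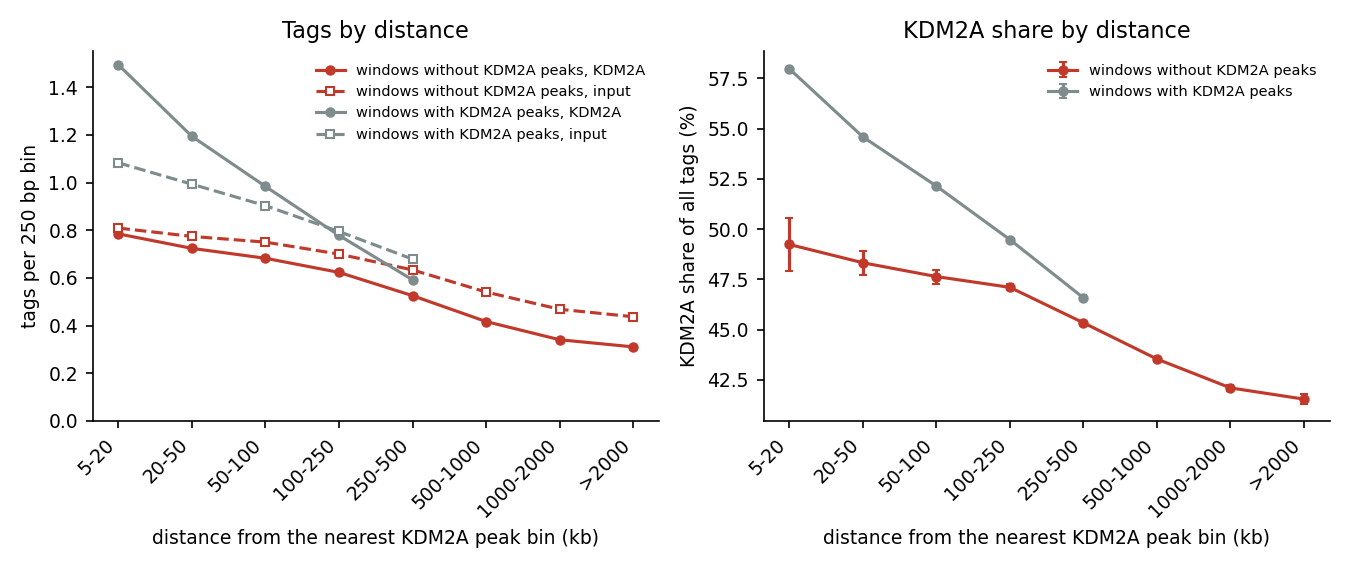
Left, KDM2A (circles) and input (squares) tags per 250 bp bin, and right, the KDM2A share of all tags with 95% Wilson intervals, by distance from the nearest KDM2A peak bin (kb, in classes). Red stands for windows without peaks and grey for windows with peaks. All 4 lines of tags and both lines of shares fall with distance. Red lies under grey of the same library, and in the share, wherever both are drawn.

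In a sequenced library with even coverage the tags per bin would follow a Poisson distribution, in which the variance equals the mean. In the windows without peaks the variance was 1.67 times the mean for KDM2A and 1.40 times for input. In the background of the other windows it was 2.23 and 1.46 times. Of the bins in windows without peaks, 69.0% held no KDM2A tag, where a Poisson distribution of the same mean gives 63.6%, and 61.3% held no input tag, where it gives 56.7%. Of the 3433769 bins, 2404 held 8 or more KDM2A tags and 160 held 8 or more input tags. In the background of the other windows, 34640 of 5476243 bins held 8 or more KDM2A tags and 1442 held 8 or more input tags. Bins of this height were thus more frequent for KDM2A in both kinds of windows, also in the windows without peaks, where its mean was lower than that of input. Bins of 15 or more tags numbered 31 for KDM2A, where the rule limits them, and 39 for input.

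The windows also varied among themselves by more than counting error. The KDM2A share per window had an SD of 3.25 percentage points over the 1717 windows, and counting error alone gives 1.16. KDM2A and input counts went together across windows (Pearson's r = 0.949, n = 1717), and the share rose with input (r = 0.624). The shares of adjoining windows were alike to a lesser degree (r = 0.445, n = 1011 pairs). These coefficients are descriptions, since neighbouring windows are not independent and all windows come from the same pair of libraries.

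KDM2A tags were at least 50% of the tags in 90 of the windows, at least 55% in 6 and at least 60% in 2. The highest share was found on chromosome 6 from 52000001 to 52500000, with 2635 KDM2A and 1522 input tags (63.4%, 61.9% to 64.8%). Its KDM2A tags were spread widely. In the 4 steps of 50 kb from 52100001 to 52300000 KDM2A was between 66.7% and 79.5% of the tags, with 1681 KDM2A and 613 input tags in all. In the other 6 steps it was between 44.2% and 53.9%, with 954 and 909 tags. The step from 52150001 to 52200000 alone had 18 bins of 8 or more KDM2A tags and none of input, yet the highest bin of the window held 13. The rule thus counted as free of peaks a window with about 200 kb of raised KDM2A signal that no 250 bp bin carried over the limit. With 1 kb bins and a limit of 30 KDM2A tags, chosen after the data were seen, this window had 4 peak bins and was no longer among those without peaks.

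The other window of at least 60% was on chromosome 5 from 116500001 to 117000000 and was named after its values were seen. It held 3683 KDM2A and 2382 input tags (60.7%, 59.5% to 61.9%), the most KDM2A tags of all 1717 windows. Its highest bin held 13 KDM2A tags, and with 1 kb bins it had 1 peak bin. The lowest share was found on chromosome 4 from 67000001 to 67500000, with 492 KDM2A and 885 input tags (35.7%, 33.2% to 38.3%) and a highest bin of 4 KDM2A tags.

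The window with the most input tags was on chromosome 8 from 10500001 to 11000000, with 2714 input and 2768 KDM2A tags (50.5%, 49.2% to 51.8%). It stood alone, with 3 peak bins in the window before it and 29 in the window after it. Its highest bin held 11 KDM2A tags, under the limit, although both its counts exceeded the medians of the windows with peaks. The window with the fewest input tags was on chromosome 6 from 74000001 to 74500000, within the run of 12 described above, with 506 input and 381 KDM2A tags (43.0%, 39.7% to 46.2%).

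Copies and strands were also compared. The rule counted each position and strand once and moved tags by strand, so that these values are not independent of it. Tags beyond the first at a position and strand were 3.77% of the KDM2A tags and 18.5% of the input tags in windows without peaks, and 4.55% and 21.1% in the background of the others. In windows without peaks 50.1% of the KDM2A positions were on the plus strand. For pairs of KDM2A tags from the plus and the minus strand, the most frequent distance was 102 bp in windows without peaks and 104 bp in the others. It was 2.09 and 1.64 times as frequent as distances of 300 to 400 bp. For input the most frequent distance was 90 bp in both, at 3.12 and 2.48 times. In each library the distance was thus nearly the same in both kinds of windows.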

How the data were processed

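Tags were measured by sequencing of 1 KDM2A ChIP and 1 input library from V6.5 mouse ESCs, each amplified by 18 cycles of PCR. KDM2A chromatin was fixed with EGS before formaldehyde. The authors deposited counts of tags per chromosome, strand and position, with no normalization. Submitters' processing notes name Bowtie and mm9, and the version and filters are not given in the sources used here. From these counts, bins, windows, runs and distances were computed as described above with Python 3.11.15, numpy 2.4.6, pandas 2.3.3, scipy 1.17.1 and matplotlib 3.10.9. The rule was also run on simulated bins with Poisson counts and added peaks of a single bin. These lack the excess variance and the broad KDM2A signal described above, so they cannot show how the rule treats either. Depth limits what the rule can find, since a bin needs 15 tags in a library with a mean near 1 tag per bin. Counting 1 tag per position and strand left 9398246 KDM2A and 7582941 input tags on chromosomes 1 to 19. The windows, limits and comparisons were chosen with earlier results of these data known. Windows named one by one are the longest runs and the extremes of share, input and limit. No genome or annotation of mm9 was used here, so windows are given by position, and no gene or sequence is assigned to them.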

Additional observations from a re-analysis of the deposited data

How the results depend on the processing

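No paired analysis was possible because KDM2A and input were each sequenced from a lone library. Of 14 alternatives, 12 gave a number of windows within 1.5 times of 1717. It was 4790 with 250 kb windows, which are smaller and more numerous, and 985 with at least 1000 input tags per window. The limit on KDM2A tags moved it from 1186 at 10 tags to 2188 at 20, and the proportional limit, chosen after the data were seen, gave 1538 windows, of which 1377 were among the 1717. The KDM2A share of 44.4% has a narrow interval, and 10 alternatives left it. It was 40.1% with all deposited tags, 44.6% without movement of tags, 43.3% with 500 bp bins, 44.6% with windows that start 250 kb later, 46.0% with 250 kb windows, 43.1% at 10 tags, 46.0% at 20 tags and 45.5% with at least 1000 input tags. Of the alternatives chosen after the data were seen, it was 46.8% with the proportional limit and 44.3% with 1 kb bins. The share of windows that adjoin another one, 80.2%, was 77.9% with all tags, 72.6% with 500 bp bins, 88.4% with 250 kb windows, 67.9% at 10 tags, 84.4% at 20 tags, 56.0% with at least 1000 input tags and 68.6% with the proportional limit. Copies made up a larger part of the input tags than of the KDM2A tags, and a higher minimum leaves fewer windows. The cause of the changes was not tested for any setting.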

Other observations

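Chromosome X was outside the rule. Under the same limits, 121 of its 168 windows of at least 500 input tags (72.0%) had no KDM2A peak bin, and of its 326 windows with any input tag 277 (85.0%) had none. The median X window held 510 input tags, against 1538 on the autosomes among windows with any input tag, and 113 peak bins were found on the whole chromosome. In the 121 windows KDM2A made up 48.4% of the tags. The fixed limit of 15 tags is harder to reach at this depth, and the part of depth in the high share of windows without peaks on X was not tested.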
